A study of Homo sapiens with 32 samples.

Results

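The subject is the difference between losing the cohesin subunit STAG2 and losing its paralog STAG1 in A673 cells, an established Ewing sarcoma line. The libraries were chosen from the count tables of 3 experiments, taking every STAG2 knockout, STAG1 knockout and control column, which gave 16 of the 32 samples of the series. Columns of EZH2 and SUZ12 knockouts, 6 in all, were left out. The study compared Ewing sarcoma cells with and without STAG2 by RNA sequencing of bulk cultures.

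Experiments 1 and 2 hold the STAG2 question: 5 STAG2 knockout libraries (genotype iCas9+STAG2ko) and 6 controls, of which 4 are a wild-type clone carrying inducible Cas9 (genotype iCas9) and 2 are parental A673 (genotype WT). Experiment 3 holds the STAG1 question: 3 STAG1 knockout libraries (iCas9+STAG1ko), 1 library of the iCas9 clone and 1 of the parental line. All groups share the A673 background, and the knockout clones come from the clone with Cas9 at the AAVS1 site, which parental cells lack. Each knockout library is a single clone, so clone and genotype are not separate within a library. No library of experiments 1 and 2 carries a STAG1 knockout and none of experiment 3 a STAG2 knockout, so the paralog and the experiment cannot be told apart beyond what each experiment's own controls remove. Libraries are named here by the number in the column header. The sample titles number the STAG2 clones 1 and 4 in experiment 1, where the headers have 5 and 24, so whether STAG2 KO 5 of experiments 1 and 2 are the same clone cannot be told from the headers.

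Cohesin is the ring-shaped complex that holds sister chromatids together and extrudes chromatin loops, and every ring carries either STAG1 or STAG2. The paralogs share much of this work, and cells that lose one depend on the other. STAG2 is a recurrent target of loss-of-function mutations in Ewing sarcoma, a tumor driven by the EWS::FLI1 fusion factor, which binds GGAA repeats.

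Total counts per library were similar between groups. The 6 controls of experiments 1 and 2 held 16358857 to 20366240 counts (median 18627080.5). The 5 STAG2 knockouts held 17294573, 18894386, 20454331, 16983193 and 20180688. In experiment 3 the parental library held 19704414 and the clone control 17694942, and the STAG1 knockouts held 15734628, 18126175 and 19020817. Levels below are CPM, counts scaled to a common library size by the trimmed mean of M values. STAG2 knockout values come in the order KO 5 and KO 24 of experiment 1, then KO 3, KO 5 and KO 2 of experiment 2, STAG1 knockout values in the order KO 1, KO 5 and KO 7, and experiment 3 controls as parental, then clone. The p-values measure the spread between these libraries, and the labels do not say that each is a separate culture.

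The labels were checked first against the targets themselves. STAG2 was at 252, 286 and 346 CPM (lowest, median and highest) in the controls of experiments 1 and 2, and at 42.0, 181, 68.0, 59.1 and 62.5 in the STAG2 knockouts. All 5 lay below all 6 of these controls, but KO 24 of experiment 1 kept more STAG2 transcript than the other STAG2 knockouts. In experiment 3, STAG2 was at 255 and 269.9 in the controls and 347, 293 and 308 in the STAG1 knockouts, which all lay above both controls. The STAG2 effect, meaning the log2 fold change of STAG2 knockout over controls, was -1.83 on STAG2 itself (95% interval -2.41 to -1.25, adjusted p = 0.000599).

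STAG1 was at 67.0 and 56.7 CPM in the controls of experiment 3 and at 61.0, 14.9 and 32.5 in the STAG1 knockouts. KO 5 and KO 7 were low, whereas KO 1 lay between the controls, so its transcript level does not set it apart as a knockout. The STAG1 effect on STAG1, the log2 fold change of STAG1 knockout over its controls, was -0.78 (95% interval -1.62 to 0.07) and did not pass the test (adjusted p = 0.453). On STAG2 the STAG1 effect was 0.27 (95% interval -0.60 to 1.14) and did not pass the test either (adjusted p = 0.859). Protein was not measured in these libraries; the study shows an immunoblot of its clones, but the numbers of STAG1 knockouts in the column headers could not be matched to clones of the sample titles. Exons of PCCB overlap STAG1, and those of TENM1 and STAG2-AS1 overlap STAG2, on the other strand. With STAG2 lost, STAG1 was at 109, 137, 148, 93.0 and 178 CPM against 76.9, 101 and 126 in controls. KO 5 of experiment 2 was below its controls and the other 4 above theirs, with a STAG2 effect of 0.39 (adjusted p = 0.351).

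**Figure D1:**
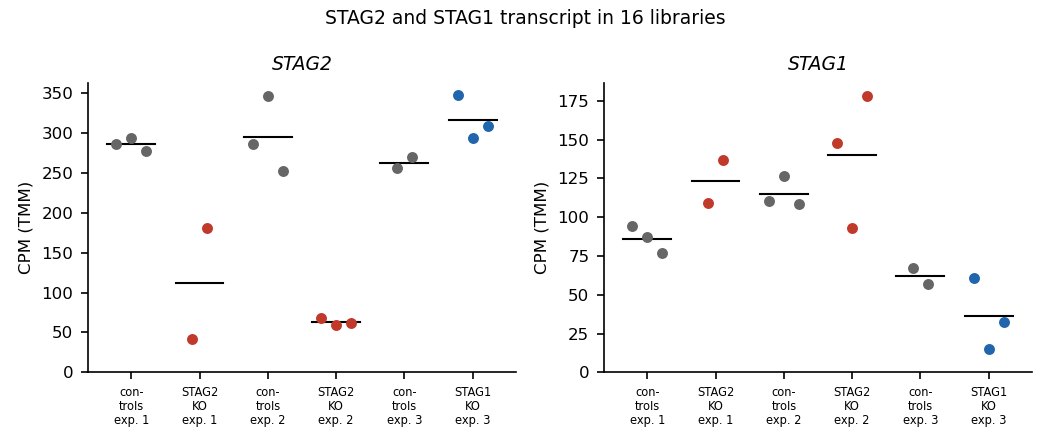
STAG2 (left) and STAG1 (right) in CPM in each of 16 libraries (points) by experiment and genotype, with group means as lines. STAG2 KO 24 of experiment 1 stands at 181 CPM among STAG2 knockouts, and STAG1 KO 1 at 61.0 CPM among STAG1 knockouts.

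Ewing sarcoma markers other than CD99 were counted in every library. NKX2-2, a homeobox factor, was at 24.8, 70.6 and 125 CPM (lowest, median and highest of 16), NR0B1, a nuclear receptor, at 50.7, 124 and 251, and STEAP1, a membrane metalloreductase family protein, at 66.2, 111 and 187. CD99, the usual surface marker of Ewing sarcoma, was listed at 0 counts in every library. It lies in a region that the sex chromosomes share, and how the counting treated that region is not given, so the 0 does not show that its transcript was absent. FLI1 was at 53.9, 73.8 and 103 and EWSR1 at 265, 315 and 379. Markers of other cells were low or carried by few genes. The 10 immune and endothelial markers summed to 11.04 to 15.5 CPM in the STAG1 knockouts and 3.004 to 6.92 CPM in all other libraries, with CD68 the most abundant in all 16 libraries (6.36, 8.06 and 10.04 CPM in the STAG1 knockouts and 2.14 to 5.27 in the others), and 1 to 5 of the 10 were at 0 in a library. The 10 epithelial markers summed to 105 to 454 CPM, with the keratin KRT18 the most abundant in all 16 libraries. The 7 skeletal muscle markers summed to 6.72 to 64.9 CPM, with the troponin TNNT1 the most abundant except in STAG2 KO 24 of experiment 1, where it was the myosin MYH3. In bulk samples, fewer cells of a type and less RNA per cell cannot be told apart, and the part of these markers in the results was not tested.

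Other libraries stood apart in their whole profile. STAG2 KO 5 of experiment 2 differed from KO 3 and KO 2 with a mean chi-square per gene of 113 and 140.2, against 25.7 between those 2, where counting noise alone gives about 1. STAG2 KO 24 of experiment 1 had the lowest median correlation with the other libraries (0.920 in log2 CPM, across genes), followed by STAG2 KO 5 of experiment 2 (0.921). The 2 clone controls of experiment 1, a and b, had a mean chi-square of 1.33, and the labels do not say whether they are separate cultures. The counts over all genes are therefore also given without the libraries in doubt.

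The STAG2 effect and the STAG1 effect differed in 898 of 14696 genes tested (6.11%): the STAG2 effect lay below the STAG1 effect in 551 (3.75%) and above it in 347 (2.36%). More genes were called for STAG2 loss than for STAG1 loss: 2518 genes (17.1%) were called for the STAG2 effect, 1208 higher (8.22%) and 1310 lower (8.91%), and 153 (1.04%) for the STAG1 effect, 81 higher (0.551%) and 72 lower (0.49%). With experiment 3 fitted apart from experiments 1 and 2, a choice made after seeing the data, 757 genes were called for the STAG1 effect, 398 higher and 359 lower. The STAG2 effect was then called in 1687 genes, 905 higher and 782 lower. How many more genes were called for STAG2 loss, and in which direction most of them lay, thus depends on the fit. Genes moved oppositely, with both effects and the difference called, numbered 41 (0.279%). Genes called for STAG2 loss and not for STAG1 loss, with the difference called, numbered 645 (4.39%), and genes called for STAG1 loss and not for STAG2 loss 69 (0.47%). A further 29 genes (0.197%) moved the same way in both, with a difference that was not called. All calls are at an adjusted p under 0.05. Experiments 1 and 2 hold STAG2 knockouts of different clones by the sample titles. A second fit gave each of them its own STAG2 effect. There the quasi-likelihood test called a different STAG2 effect in 1728 genes (11.8%), in 83 of them (0.565%) with both effects called and opposite in sign. These differences between experiments were more numerous than the 898 and 41 between paralogs of the main fit. The 2 fits estimate the spread between libraries differently, so their counts are not on an equal footing. With the STAG2 effect from experiment 1 the paralogs differed in 2188 genes, 120 of them opposite. Without STAG2 KO 5 of experiment 2 these counts were 1860 and 113. Which kind of difference is more numerous depends on the fit, and the paralog cannot be told apart from the experiment in these counts.

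The STAG1 effect was measured less precisely, with a median standard error of 0.279 log2 units against 0.186 for the STAG2 effect, so a gene not called for STAG1 loss is not shown to be unmoved. Of the 645 genes called for STAG2 loss alone, 240 had a STAG1 effect with a 95% interval inside -1 to 1, and of the 69 called for STAG1 loss alone, 51 had such a STAG2 effect. The median effect over all genes tested was 0.01 for STAG2 loss and 0.02 for STAG1 loss.

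The calls for STAG1 loss depended on single libraries of all 3 experiments. Without the parental library of experiment 3 the STAG1 effect was called in 5 genes, the difference in 195, and 3 genes were opposite, 172 called for STAG2 loss alone and 2 for STAG1 loss alone. Without the clone control of experiment 3 these counts were 14, 296, 9, 242 and 3, in the same order. In all 16 fits that left out 1 library, 893 of the 898 genes kept the sign of the difference and 173 kept their call. These genes were picked by their called difference in the full fit, so their kept signs do not show how steady the direction is. Without STAG1 KO 1 the difference was called in 635 genes, with 29 opposite, 474 for STAG2 loss alone, 35 for STAG1 loss alone and 84 called for the STAG1 effect. Without STAG1 KO 5 these counts were 602, 16, 467, 11 and 34, and without STAG1 KO 7 they were 656, 24, 489, 25 and 63. Without STAG2 KO 5 of experiment 2 the first 4 counts were 1860, 113, 1347 and 203, and without STAG1 KO 1 and STAG2 KO 5 of experiment 2 together, a choice made after seeing the data, they were 1859, 99, 1410 and 117. Without STAG2 KO 24 of experiment 1 they were 1100, 57, 708 and 108. The STAG1 effect was called in 570, 360 and 243 genes in these 3 fits, and the STAG2 effect in 5032, 5127 and 2105. Clone controls of experiments 1 and 2 mattered too: without a, b, 1 or 2 the STAG1 effect was called in 83, 85, 97 and 90 genes, with 25, 25, 23 and 21 opposite and 36, 39, 49 and 46 for STAG1 loss alone.

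Choices of test and controls moved these counts as well. DESeq2 called the difference in 1546 genes, with 135 opposite, 1002 for STAG2 loss alone and 209 for STAG1 loss alone, and with no file term the counts were 3840, 123, 1799 and 265. With the STAG2 effect taken from experiment 1 they were 2188, 120, 1677 and 186. The clone as the only control left 211, 2, 186 and 4 and the parental line as the only control 15 genes with a called difference and 1 with a called STAG1 effect. Summing clone controls a and b of experiment 1 left 25 opposite genes and 39 called for STAG1 loss alone.

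**Figure D2:**
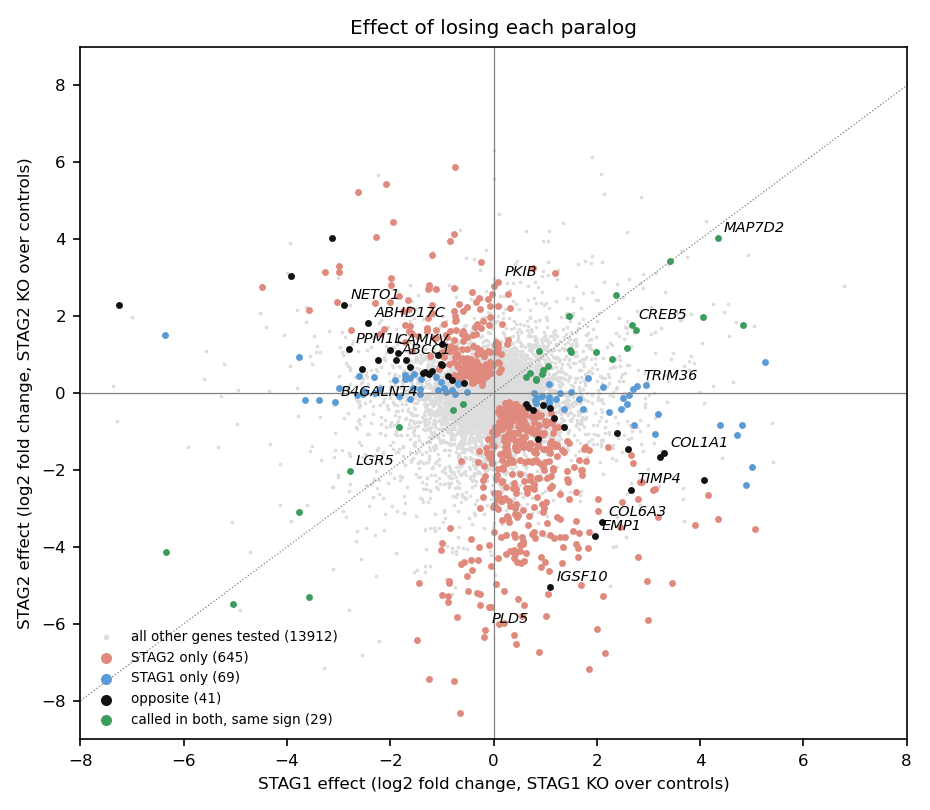
STAG2 effect (vertical, log2 fold change) against STAG1 effect (horizontal, log2 fold change) for the genes tested, one point a gene, colored by class; the dotted line marks equal effects, and 3 genes lie outside the axes. The 41 opposite genes fall in the upper left and lower right, and the 645 genes called for STAG2 loss alone spread along the vertical axis.

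The genes moved oppositely split into 17 that fell with STAG2 loss and rose with STAG1 loss and 24 with the reverse pattern. Which pattern held more genes depended on the fit. DESeq2 gave 76 that fell with STAG2 loss and 59 with the reverse pattern, and with no file term they were 84 and 39. Without clone control a of experiment 1 they were 5 and 20. In 31 of the 41 every knockout lay on 1 side of all controls of its own experiment, for both paralogs, and genes were named from those of them averaging at least 5 CPM, by the size of the difference. Of those that fell with STAG2 loss, the rule names IGSF10, EMP1, COL6A3 and TIMP4, and of those with the reverse pattern NETO1, ABHD17C, PPM1L and CAMKV.

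IGSF10, which encodes a large secreted immunoglobulin superfamily protein, was at 54.5, 70.4 and 86.6 CPM in the controls of experiments 1 and 2 and at 1.89, 3.78, 1.86, 1.46 and 1.31 in the STAG2 knockouts. It was at 78.7 and 116 in the experiment 3 controls and 184, 217 and 225 in the STAG1 knockouts. All 5 STAG2 knockouts were below all 6 controls, while STAG1 knockouts held the highest levels of all 16 libraries. The STAG2 effect was -5.05 (adjusted p = 1.38e-09), the STAG1 effect 1.10 (adjusted p = 0.0329) and their difference -6.15 (95% interval -6.73 to -5.58, adjusted p = 1.35e-07). Exons of MED12L overlap IGSF10 on the other strand, and in non-directional libraries their reads cannot be told apart.

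EMP1, a small membrane protein with 4 spans related to PMP22, was at 20.4, 32.5 and 81.6 CPM in the controls of experiments 1 and 2 and 1.49, 1.83, 5.90, 2.03 and 4.90 in STAG2 knockouts. In experiment 3 its level was 22.3 and 26.9 in controls and 85.7, 101 and 101 in STAG1 knockouts. Neither knockout group overlapped its controls, and the difference of effects was -5.68 (STAG2 -3.72, STAG1 1.96; adjusted p = 2.39e-05, 1.5e-06 and 0.0227). COL6A3, a chain of collagen VI, was at 4.56, 5.90 and 8.07 CPM in controls and 1.03, 0.333, 0.673, 0.313 and 0.544 with STAG2 lost. The experiment 3 controls held 4.47 and 8.38 CPM of COL6A3 and the STAG1 knockouts 23.2, 22.1 and 37.4. Every STAG2 knockout was below and all 3 STAG1 knockouts above all their controls, with a difference of -5.46 (adjusted p = 0.000125), a STAG2 effect of -3.36 (adjusted p = 1.82e-05) and a STAG1 effect of 2.10 (adjusted p = 0.0376). TIMP4, an inhibitor of matrix metalloproteinases, was at 5.05, 11.2 and 13.5 CPM in controls against 1.20, 0.945, 2.23, 2.08 and 4.08 in STAG2 knockouts, and at 5.88 and 4.17 against 30.2, 44.1 and 21.7 in experiment 3. Again no knockout library overlapped its own controls, and the difference was -5.18 (adjusted p = 0.000131); TIMP4 shares exon positions with SYN2 on the other strand.

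NETO1, an auxiliary subunit of kainate-type glutamate receptors, ran the other way. It was at 4.45, 5.42 and 8.90 CPM in the controls of experiments 1 and 2 and 31.2, 37.0, 18.4, 29.8 and 24.4 in STAG2 knockouts, and at 8.75 and 20.3 against 1.76, 2.98 and 1.11 in experiment 3. Every STAG2 knockout was above and every STAG1 knockout below its controls, which themselves differed in experiment 3, the clone being higher. The difference of effects was 5.18 (95% interval 4.19 to 6.16, adjusted p = 3.93e-05), from a STAG2 effect of 2.28 and a STAG1 effect of -2.89 (adjusted p = 4.62e-05 and 0.00389). ABHD17C, a depalmitoylating enzyme, was at 4.14, 4.42 and 4.78 CPM in controls and 9.92, 18.3, 18.02, 21.0 and 11.9 with STAG2 lost, and at 5.93 and 3.95 against 0.819, 0.595 and 1.31 with STAG1 lost. It rose with STAG2 loss (1.81) and fell with STAG1 loss (STAG1 effect -2.43), without overlap, for a difference of 4.24 (adjusted p = 9.39e-05).

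PPM1L, a protein phosphatase of the PP2C type, was at 6.53, 11.5 and 16.7 CPM in the controls of experiments 1 and 2 and 23.8, 19.8, 15.2, 38.0 and 17.7 in STAG2 knockouts. In experiment 3 it was at 21.5 and 10.9 in controls and 3.15, 2.11 and 1.77 in STAG1 knockouts. Within each experiment the groups were apart, although the pooled ranges of controls and STAG2 knockouts touch across experiments. The difference was 3.95 (adjusted p = 0.000853). Within experiment 1 alone the PPM1L STAG2 effect was 0.65 and not called (adjusted p = 0.229), and in experiment 2 it was 1.54 (0.0155). CAMKV, a kinase-like protein of neuronal vesicles, was at 4.69, 5.64 and 6.63 CPM in controls and 18.1, 6.89, 12.4, 14.4 and 8.49 with STAG2 lost, and at 3.81 and 3.26 against 1.13, 0.812 and 0.706 with STAG1 lost. STAG2 KO 24 and KO 5 of experiment 1 both exceeded their controls, KO 24 by little, and the difference was 3.11 (adjusted p = 0.00125).

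ABCC1, the export pump also known as multidrug resistance protein MRP1, was the 1 opposite gene that kept its class in all 16 fits that left out a library. It was at 35.6, 59.6 and 74.7 CPM in controls and 123.4, 128, 79.0, 85.9 and 62.1 in STAG2 knockouts, and at 78.9 and 62.4 against 20.3, 16.2 and 20.4 in STAG1 knockouts. Both knockout groups were apart from their own controls, high after STAG2 loss and low after STAG1 loss (STAG2 effect 0.86, STAG1 effect -1.90, difference 2.76; adjusted p = 0.000148, 0.000124 and 8.97e-06). The transcription factor gene BCL11B (difference 1.76), the calcium channel gamma subunit gene CACNG4 (3.16) and ADAM22, a receptor of the LGI family of secreted proteins (1.71), had the same signs, with STAG2 KO 24 of experiment 1 inside the range of its controls for BCL11B and KO 2 of experiment 2 for CACNG4. COL1A1, the main chain of collagen I, had the signs of COL6A3: STAG1 knockouts held 1073, 432 and 525 CPM against 52.5 and 85.5 in their controls, and STAG2 knockouts 89.1, 86.8, 68.8, 13.5 and 43.0 against 112, 148 and 306. Its STAG1 knockouts were far above their controls, while its STAG2 knockouts were all below the controls of their own experiment, lowest in KO 5 of experiment 2 (difference -4.86, adjusted p = 0.00518; STAG1 effect 3.29, adjusted p = 0.0498).

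**Figure D3:**
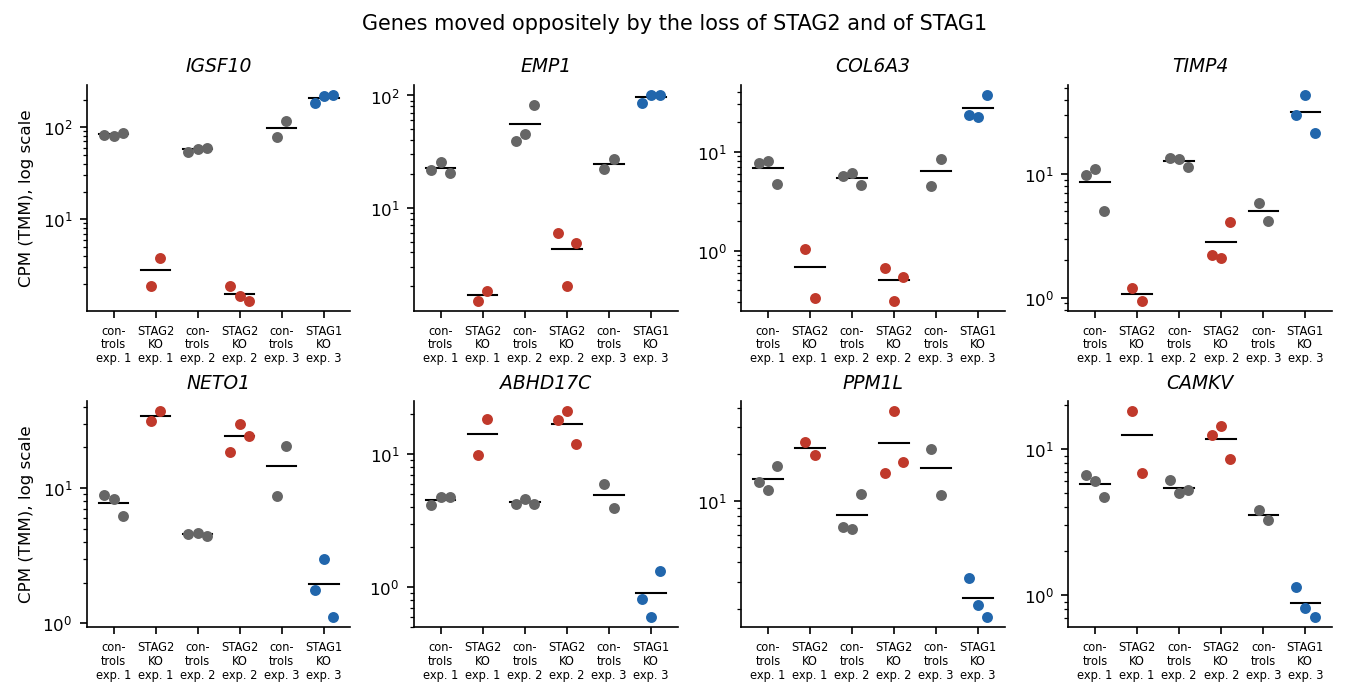
CPM on a log scale of 8 genes moved oppositely, in controls (grey), STAG2 knockouts (red) and STAG1 knockouts (blue) of each experiment, each point a library and each line a group mean. In the upper row STAG2 knockouts are low and STAG1 knockouts high, and in the lower row the reverse.

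Among the opposite genes named here, the STAG1 effect lost its call more often than the difference when a control was left out. Of 41, 39 kept a called difference in all 16 fits that left out a library, and all 41 its sign. Of the 13 named here, without the parental library of experiment 3, NETO1, CACNG4 and ABCC1 kept a called STAG1 effect (adjusted p 0.00302 to 0.612 over the 13) and all but COL1A1 a called difference (COL1A1 adjusted p = 0.0819). Without the clone control of experiment 3, ABHD17C, PPM1L, CACNG4 and ABCC1 kept the STAG1 call (adjusted p 0.000988 to 0.269), and all 13 kept the call of the difference. Over the 16 fits that left out 1 library, the STAG1 effect was called in 8 for IGSF10, 12 for EMP1, 7 for COL6A3, 13 for TIMP4 and 2 for COL1A1. Without STAG1 KO 5 its adjusted p was 0.0969 for IGSF10, 0.0732 for EMP1, 0.0801 for COL6A3, 0.0545 for TIMP4, 0.0602 for PPM1L, 0.0969 for CAMKV and 0.0969 for ADAM22. The number of fits with a called STAG1 effect was 15 for NETO1, 15 for ABHD17C, 14 for PPM1L, 12 for CAMKV, 14 for BCL11B and 12 for ADAM22. The STAG2 effect of CACNG4 was called in 8 of 16 (adjusted p up to 0.104, without STAG2 KO 3), that of COL1A1 in 13 (up to 0.0806, without STAG2 KO 2) and that of PPM1L in 15 (0.0524, without WT clone 1 of experiment 2).

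Genes called for STAG2 loss and not for STAG1 loss fell more often than they rose, 418 against 227. Those with the largest difference, among genes whose STAG1 effect had an interval inside -1 to 1, were PLD5, PROKR1, CPB2-AS1 and CSPG5, which fell, and PKIB, FAM241A, MAGI3 and NEDD4L, which rose. They were taken from the 535 of the 645 genes in which all STAG2 knockouts lay on the same side of every control of their own experiment. The STAG1 effects of the 8 genes lay between -0.37 and 0.26.

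PLD5, a member of the phospholipase D family, was at 21.7, 23.7 and 41.9 CPM in the controls of experiments 1 and 2 and at 0.860, 0.778, 0.0518, 0.104 and 0.272 in STAG2 knockouts. In experiment 3 it was at 50.9 and 53.7 in controls and 44.2, 47.2 and 48.5 in STAG1 knockouts. All 5 STAG2 knockouts were far below all 6 controls, lowest in experiment 2, and STAG1 knockouts lay just under theirs. The STAG2 effect was -6.16 (adjusted p = 9.14e-08), the STAG1 effect -0.17 (95% interval -0.89 to 0.56) and the difference -5.99 (adjusted p = 2.66e-05). PROKR1, a receptor for prokineticins, was at 7.74, 12.1 and 14.2 CPM in controls and 1.09, 1.11, 1.45, 1.61 and 1.09 with STAG2 lost, against 19.4 and 27.5 and 39.1, 19.7 and 25.5 in experiment 3, where the groups overlapped. Its difference was -3.45 (adjusted p = 0.000254), with a STAG1 effect of 0.26 (95% interval -0.39 to 0.91). CSPG5, a neural chondroitin sulfate proteoglycan, fell with STAG2 loss by the same measure (-2.22, adjusted p = 2.3e-05; difference -2.27, adjusted p = 0.00384). The antisense RNA CPB2-AS1 lies on chromosome 13 and had a STAG2 effect of -2.32 and a difference of -2.49 (adjusted p = 0.00865); exons of CPB2, LCP1 and ZC3H13 overlap it on the other strand.

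PKIB, an inhibitor of protein kinase A, was at 7.41, 9.06 and 9.71 CPM in controls of experiments 1 and 2 and 51.9, 59.1, 90.4, 46.8 and 80.7 in STAG2 knockouts. With STAG1 lost it was at 9.32, 8.55 and 16.7 against 7.62 and 14.0. Each STAG2 knockout was far above all 6 controls, and the groups of experiment 3 overlapped. The STAG2 effect was 2.89 (adjusted p = 3.66e-06), the STAG1 effect 0.09 (95% interval -0.63 to 0.81) and the difference 2.79 (adjusted p = 0.00125). NEDD4L, a ubiquitin ligase of membrane proteins, was at 10.3, 15.1 and 24.8 CPM in controls and 64.2, 65.5, 41.7, 54.6 and 27.9 with STAG2 lost, and at 14.3 and 13.4 against 8.95, 9.20 and 14.0 in experiment 3. It was high in all 5 STAG2 knockouts, with a difference of 2.09 (adjusted p = 0.00206). FAM241A (difference 2.33, adjusted p = 0.00809) and the scaffold gene MAGI3 (2.17, adjusted p = 0.0156) rose with STAG2 loss in the same way. Leaving out the parental library of experiment 3, the difference lost its call in CPB2-AS1 (adjusted p = 0.0946), CSPG5 (0.0603), FAM241A (0.103) and MAGI3 (0.0645), and without the clone control in CPB2-AS1 (0.0575) and MAGI3 (0.0931).

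Genes called for STAG1 loss and not for STAG2 loss were about as often higher (35) as lower (34) in the main fit. By DESeq2 the STAG2 effect lay below the STAG1 effect in 121 such genes and above it in 88. With the STAG2 effect from experiment 1 these counts were 120 and 66. Genes of the main fit with the largest difference by the naming rule were CUBN, RIN3, TRIM36 and PRDX4, which rose, and B4GALNT4, SLC6A15, TERT and IGSF9, which fell. The STAG1 knockouts lay on 1 side of both controls in all 69 genes, as naming required. The STAG2 effects of the 8 lay between -0.41 and 0.46. TRIM36 and B4GALNT4 were the 2 of the 69 that kept this class in all 16 fits that left out a library.

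TRIM36, a ubiquitin ligase, was at 3.998 and 3.79 CPM in the experiment 3 controls and 24.3, 25.7 and 30.4 in STAG1 knockouts. In experiments 1 and 2 it was at 10.9, 11.5 and 15.4 in controls and 14.7, 13.6, 9.63, 16.04 and 15.9 in STAG2 knockouts. STAG1 knockouts were thus high against controls that were themselves the lowest of the 16 libraries, and STAG2 knockouts overlapped their controls. The STAG1 effect was 2.78 (adjusted p = 0.0002), the STAG2 effect 0.17 (95% interval -0.16 to 0.51) and the difference -2.61 (adjusted p = 0.00021). RIN3, an exchange factor for Rab5, was at 2.45 and 1.39 CPM against 11.6, 21.0 and 12.1 in STAG1 knockouts, and at 1.43, 3.14 and 4.83 against 2.69, 6.502, 3.004, 2.29 and 3.10 in STAG2 knockouts. All 3 STAG1 knockouts were above their controls, and of the STAG2 knockouts KO 24 was above its own, with a STAG1 effect of 2.95 and a difference of -2.75 (adjusted p = 0.0192 and 0.0136). CUBN, the endocytic receptor cubilin, had a STAG1 effect of 2.58 and PRDX4, a peroxiredoxin of the endoplasmic reticulum, of 1.73 (differences -2.86 and -2.13, adjusted p = 0.00723 and 0.0119). In experiment 2 PRDX4 was at 140, 66.2 and 155 CPM in STAG2 knockouts, all below their controls at 221, 218 and 182. Its STAG2 effect there was -0.78 (adjusted p = 0.0803), against 0.05 in experiment 1 (adjusted p = 0.915).

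B4GALNT4, a glycosyltransferase, was at 82.4 and 69.9 CPM in experiment 3 controls and 6.99, 6.98 and 13.0 in STAG1 knockouts. In experiments 1 and 2 its level was 29.0, 36.0 and 56.8 in controls and 46.3, 37.5, 29.7, 31.2 and 20.1 in STAG2 knockouts. It was low in all 3 STAG1 knockouts, and the STAG2 knockouts overlapped the controls (STAG1 effect -3.08, adjusted p = 0.000124; STAG2 effect -0.25, 95% interval -0.63 to 0.13; difference 2.83, adjusted p = 0.000199). TERT, the catalytic subunit of telomerase, was at 14.5 and 19.4 CPM in controls and 5.92, 1.84 and 2.67 with STAG1 lost, and at 15.1, 18.1 and 21.6 against 29.8, 22.4, 17.4, 10.8 and 12.8 with STAG2 lost. All 3 STAG1 knockouts were low, and STAG2 knockouts lay above their controls in experiment 1 and, for KO 5 and KO 2, below them in experiment 2 (difference 2.28, adjusted p = 0.015). SLC6A15, a neutral amino acid transporter, and the immunoglobulin superfamily gene IGSF9 fell with STAG1 loss (STAG1 effects -2.20 and -1.72, differences 2.30 and 2.17). Within experiment 1 IGSF9 rose with STAG2 loss (1.10, adjusted p = 0.0113), with both knockouts above all 3 controls, whereas its effect in experiment 2 was -0.08 (adjusted p = 0.833). Without the parental library of experiment 3 a called STAG1 effect was left in TRIM36 and B4GALNT4 (adjusted p 0.00302 to 0.612 over the 8), and the difference lost its call in CUBN, RIN3, PRDX4, TERT and IGSF9 (up to 0.132). Without the clone control the same 2 genes held the STAG1 call, and the difference was lost in CUBN, RIN3 and TERT (up to 0.115). Over the 16 fits that left out 1 library the STAG1 effect was called in 13 for CUBN, 13 for RIN3, 3 for PRDX4, 14 for SLC6A15, 12 for TERT and 8 for IGSF9; without STAG1 KO 5 the adjusted p was 0.0563 for CUBN, 0.0657 for RIN3, 0.134 for PRDX4, 0.0801 for TERT and 0.0801 for IGSF9.

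**Figure D4:**
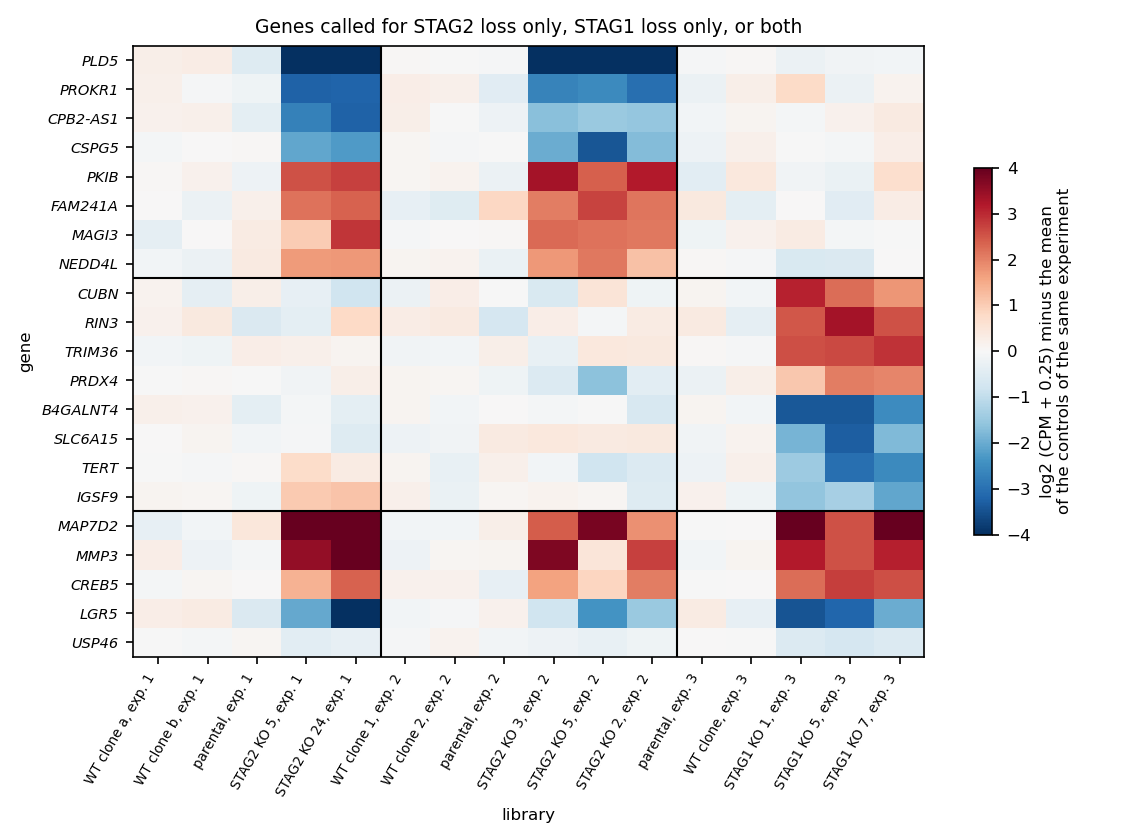
Log2 of CPM plus 0.25 minus the mean of the controls of the same experiment (color, red higher and blue lower, full at -4 and 4) for 21 genes in 16 libraries, in 3 blocks: called for STAG2 loss alone, for STAG1 loss alone, and for both with the same sign. The strongest color stands in the STAG2 knockout columns in the first block and in the STAG1 knockout columns in the second.

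In 29 genes both losses were called in the same direction and the difference was not called, 21 higher and 8 lower. MAP7D2, which binds microtubules, was at 1.64, 4.41 and 7.52 CPM in controls and 57.4, 123.2, 35.3, 92.0 and 23.2 in STAG2 knockouts, and at 0.800 and 0.801 against 20.4, 5.90 and 22.8 in STAG1 knockouts. All 8 knockout libraries lay above their own controls, by 4.03 with STAG2 lost and 4.34 with STAG1 lost, and the interval of the difference was wide (-2.49 to 1.86). CREB5, a transcription factor, rose by 1.77 and 2.68 (difference -0.91, 95% interval -1.81 to -0.02), and MMP3, the matrix protease stromelysin, by 3.42 and 3.41 (difference 0.01, -1.73 to 1.76). LGR5, a receptor for R-spondins, fell, with a STAG2 effect of -2.03 and a STAG1 effect of -2.78, and so did the deubiquitinase gene USP46 (-0.30 and -0.59). The controls themselves differed between experiments. LGR5 was at 108 and 68.1 CPM in experiment 3 controls and 17.3 to 33.0 in those of experiments 1 and 2. CREB5 was at 1.93 and 1.98 against 6.81 to 9.66, with its STAG1 knockouts at 10.2, 14.7 and 12.8. Within experiment 2 alone the STAG2 effects of LGR5 and USP46 were not called (-1.44 and -0.23, adjusted p = 0.0722 and 0.112). None of these 5 STAG1 effects was called without the parental library of experiment 3 (adjusted p from 0.14 to 0.561) or without the clone control (0.0882 to 0.321), and a difference that is not called does not show equal effects. Over the 16 fits that left out 1 library the STAG1 effect was called in 5 for MAP7D2, 3 for MMP3, 14 for CREB5, 3 for LGR5 and 11 for USP46. The sign of the difference was not stable either: with no file term the MAP7D2 difference was 2.02, the CREB5 difference 1.21, the LGR5 difference -0.93 and the USP46 difference -0.06, and the MMP3 difference lay between -0.31 and 0.30 without 1 library. MMP3 shares exon positions with WTAPP1 on the other strand.

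Promoters of named genes were read from RefSeq on build GRCh38.p14, 250 bases before to 50 after the start of the gene, for 75 of 93 named genes. They were searched on both strands for GGAAGGAA, a pair of the motif that EWS::FLI1 binds, and for CNAGGGGGC, a core of the CTCF motif. EMP1 and NETO1 are shown as opposite genes, 1 of each direction, PKIB and RIN3 as genes called for a single paralog with a match, in capitals.
EMP1: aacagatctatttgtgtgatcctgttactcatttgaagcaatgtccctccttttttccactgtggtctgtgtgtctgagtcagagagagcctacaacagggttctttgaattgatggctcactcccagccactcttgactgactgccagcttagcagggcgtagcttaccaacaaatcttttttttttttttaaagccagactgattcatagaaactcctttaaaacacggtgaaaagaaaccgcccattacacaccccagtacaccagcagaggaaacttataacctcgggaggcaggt
NETO1: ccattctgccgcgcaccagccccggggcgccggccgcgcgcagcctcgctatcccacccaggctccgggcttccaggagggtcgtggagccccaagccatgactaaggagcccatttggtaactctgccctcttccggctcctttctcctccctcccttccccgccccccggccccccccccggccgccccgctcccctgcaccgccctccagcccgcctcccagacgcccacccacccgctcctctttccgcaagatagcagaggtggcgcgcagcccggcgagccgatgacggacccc
PKIB: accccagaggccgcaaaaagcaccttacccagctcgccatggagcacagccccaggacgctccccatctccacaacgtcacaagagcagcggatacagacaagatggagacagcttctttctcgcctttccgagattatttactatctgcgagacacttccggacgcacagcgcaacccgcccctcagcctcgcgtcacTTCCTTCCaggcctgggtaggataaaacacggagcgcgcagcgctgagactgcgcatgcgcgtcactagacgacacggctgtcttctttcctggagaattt
RIN3: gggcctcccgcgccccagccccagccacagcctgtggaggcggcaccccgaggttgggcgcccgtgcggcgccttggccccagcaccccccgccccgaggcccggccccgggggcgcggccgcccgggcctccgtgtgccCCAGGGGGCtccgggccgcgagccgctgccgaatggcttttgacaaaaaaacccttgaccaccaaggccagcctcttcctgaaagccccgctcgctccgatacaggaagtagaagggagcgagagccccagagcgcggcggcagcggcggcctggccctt
These windows are chr12:13196476-13196775 (EMP1, plus strand), chr18:72867938-72868237 (NETO1, minus strand), chr6:122471671-122471970 (PKIB, plus strand) and chr14:92513531-92513830 (RIN3, plus strand). PKIB holds the GGAA pair on the strand opposite to the gene, 51 bases before the start, and RIN3 a CTCF core 110 bases before it. GGAAGGAA was in 3.58% of 27305 promoters in the table, in 3.31% of the 11222 of genes tested, in 3.39% of 501 promoters of genes called for STAG2 loss alone, in 0 of 32 of opposite genes and in 0 of 49 of genes called for STAG1 loss alone. CNAGGGGGC was in 3.5% of all, 5.3% of those tested, 5.79% for STAG2 loss alone, 4.08% for STAG1 loss alone and 0 of 32 opposite genes. A match is a description of the letters, and EWS::FLI1 repeats at distal sites lie outside these windows.

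Gene lists gave the pattern by role; each is described by counts and by its median beside that of all genes tested, which was 0.00 for the difference, and by the share with a called difference beside the 6.11% of all genes tested. The fit without STAG2 KO 5 of experiment 2 called more genes over all 14627 it tested. There the difference was called below in 1262 and above in 598. The STAG2 effect was called lower in 2856 and higher in 2176, and the STAG1 effect higher in 321 and lower in 249. Mesenchymal matrix and contractile genes had a median difference of -1.54, from a median STAG2 effect of -0.49 and a median STAG1 effect of 0.65. Their median difference lay between -1.66 and -0.92 over the alternatives. The difference was called in 11 of 38 (28.9%), all with STAG2 below STAG1. For STAG2 loss 15 were lower and 2 higher (44.7% called, against 17.1% of all genes). DESeq2 called the STAG1 effect higher in 6 of the 38, and in 343 of all 14696 genes. By edgeR 2 of the 38 were called higher for STAG1 loss (0.551% of all genes). These 2 STAG1 calls were lost without either control of experiment 3 or any single STAG1 knockout, and 9 were called higher without STAG2 KO 5 of experiment 2. The genes called higher for STAG2 loss numbered 6 without STAG2 KO 5 of experiment 2 and 1 without STAG2 KO 24, STAG1 KO 7 or either control of experiment 3. By knockout library the list's median stood at -0.43, -0.54, -0.50, -1.40 and -0.28 for STAG2 loss and at 0.64, 0.71 and 0.57 for STAG1 loss. PDGFRB, a receptor of platelet-derived growth factor on mesenchymal cells, fell with STAG2 loss (-1.25, adjusted p = 0.000173) and had a STAG1 effect of 0.45 (difference -1.70, adjusted p = 0.00419). Its levels were 69.1, 68.6, 50.2, 41.9 and 53.5 CPM in STAG2 knockouts and 110.3, 130.3 and 162 in their controls, with no overlap, and 267, 153 and 246 against 169 and 157 in experiment 3, where KO 5 was below both controls and the other two above. The number of genes of this list with a called difference was 6 without STAG1 KO 1, 6 without STAG1 KO 5, 3 without the parental library of experiment 3, 5 without its clone control, and 17 below and 1 above without STAG2 KO 5 of experiment 2.

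Interferon-stimulated genes had a lower median with STAG2 loss than with STAG1 loss: the median difference was -1.08 (STAG2 -1.09, STAG1 -0.12). Yet the difference was called in 1 of 38 (2.63%, below the share over all genes), and the list's median spread widely between libraries, from -2.32 in STAG2 KO 24 of experiment 1 to 0.30 in KO 5 of experiment 2, and from -0.79 in STAG1 KO 1 to 0.16 in KO 7. The gene called is PARP10, a mono-ADP-ribosyltransferase, at 3.62, 8.18 and 13.6 CPM in controls, 0.459, 0.278, 0.414, 1.98 and 0.490 in STAG2 knockouts, 30.9 and 20.2 in experiment 3 controls and 13.6, 39.3 and 39.8 in STAG1 knockouts. It was low in all 5 STAG2 knockouts, with STAG1 KO 1 under its controls and the other two above (difference -3.53, adjusted p = 0.0418); GRINA and SPATC1 overlap its exons on the other strand. PARP9 and its partner DTX3L, which overlap each other on opposite strands, had STAG2 effects of -2.26 and -2.17 (adjusted p = 0.00272 and 0.00117) and differences that did not pass the test (adjusted p = 0.0706 and 0.0741, and 0.000451 and 0.000799 without STAG2 KO 5 of experiment 2). Of this list, 11 genes fell and 1 rose with STAG2 loss (31.6% called, against 17.1% of all genes) and 0 were called for STAG1 loss by edgeR (3 at an unadjusted p under 0.05, 0 by DESeq2). Its difference was called in 5 by DESeq2 and in 5 of the 16 fits without 1 library for PARP10. Over all 14627 genes tested without STAG2 KO 5 of experiment 2, the difference was called in 1860 and the STAG2 effect lower in 2856. In that fit the difference was called in 16 of 38 interferon-stimulated genes and the STAG2 effect lower in 28. Their median difference was then -1.70, against -0.71 without STAG2 KO 24, where the STAG2 effect was called lower in 7 of them. The STAG1 effect was called in 1 higher and 1 lower without STAG2 KO 5 of experiment 2. The PARP10 difference had an adjusted p of 0.185 without the parental library of experiment 3 and 0.228 without its clone control.

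Neural and neuroendocrine genes had a median difference of -0.46 (STAG2 -0.74, STAG1 0.08), with 3 of 26 called (11.5%), all below; with no file term the median was 0.19. PCSK2, a prohormone convertase, was at 204, 293 and 337 CPM in controls and 82.0, 88.4, 87.3, 66.6 and 104 in STAG2 knockouts, and at 402 and 464 against 561, 563 and 542 with STAG1 lost. STAG2 knockouts were all low and STAG1 knockouts all above their controls, with a difference of -2.11 (adjusted p = 0.000266) and a STAG1 effect of 0.36 that was not called (adjusted p = 0.517). GAP43, a growth cone protein, had a difference of -5.31 (adjusted p = 0.00942), with STAG1 knockouts at 76.5, 59.7 and 23.1 CPM against 10.9 and 8.12 and STAG2 knockouts at 8.37, 0.611, 4.66, 8.65 and 30.3 against 31.0, 50.5 and 113. Every STAG1 knockout was above and every STAG2 knockout below its controls, yet the STAG1 effect did not pass the test (2.48, adjusted p = 0.208). The neuropeptide gene NPY fell with STAG2 loss (-3.51, adjusted p = 2.54e-05; difference -2.66, adjusted p = 0.0161). The difference was called in 7 of the 26 without STAG2 KO 5 of experiment 2 and in 1 without either control of experiment 3, and without the parental library GAP43 and NPY had an adjusted p of 0.0946 and 0.163, and without the clone control 0.088 and 0.0603.

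Among cohesin genes and regulators, 2 of 22 (9.09%, against 6.11% of all genes) were called for the difference, 1 of them the gene knocked out: STAG2 itself (-2.10, adjusted p = 0.0251) and PDS5B, a cohesin-associated regulator that the study names (0.78, adjusted p = 0.012). PDS5B was at 121, 125 and 141 CPM in controls and 202, 191, 200.4, 175 and 241 in STAG2 knockouts, and at 128 and 126 against 133, 109 and 109 in experiment 3. All 5 STAG2 knockouts were above their controls, whereas STAG1 knockouts lay on both sides of theirs (STAG1 effect -0.12, 95% interval -0.41 to 0.17). STAG1 transcript itself had a difference of 1.16 that was not called (adjusted p = 0.181; 0.0203 without STAG1 KO 1, where the STAG2 difference had 0.0549). Leaving out the parental library of experiment 3, the difference had an adjusted p of 0.169 for STAG2 and 0.0886 for PDS5B, and without the clone control 0.123 and 0.0619.

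EWS::FLI1 target classes of the study, used for membership alone, differed in how many genes had a called difference. Of 153 targets with distal long GGAA repeats, the difference was called below in 33 and above in 4 (24.2%, median -0.43). Of 684 with distal short repeats it was below in 67 and above in 12 (11.5%, median -0.19), and of 554 with promoter sites below in 20 and above in 20 (7.22%, near the 6.11% of all genes, median -0.03). For STAG2 loss 58 of the 153 long-repeat targets fell and 10 rose (44.4% called, against 17.1% of all genes), or 59 and 6 without STAG2 KO 24. Without STAG2 KO 5 of experiment 2, 72 fell and 17 rose, where the STAG2 effect was called in 5032 of all 14627 genes. For STAG1 loss 0 fell by edgeR (against 0.49% of all genes, 8 at an unadjusted p under 0.05, 1 by DESeq2). By edgeR 1 rose (against 0.551% of all genes, 13 at an unadjusted p under 0.05, 7 by DESeq2). The number that rose was 7 without STAG2 KO 5 of experiment 2 and 0 without any 1 STAG1 knockout. SERPINE2, a secreted protease inhibitor with a long repeat, was at 415, 693 and 768 CPM in controls and 129, 156, 178, 88.4 and 200.1 in STAG2 knockouts, and at 374 and 427 against 791, 1034 and 759 in STAG1 knockouts. STAG2 knockouts were low and STAG1 knockouts high without overlap, and the STAG1 effect (1.11) did not pass the test (adjusted p = 0.105, and 0.00908 without STAG2 KO 5 of experiment 2; difference -3.25, adjusted p = 0.000199). SERTM1, on chromosome 13, had a STAG2 effect of -5.22 and a STAG1 effect of -0.26 (difference -4.96, adjusted p = 0.000564), and P2RY1, a nucleotide receptor, -1.94 and 0.17 (difference -2.11, adjusted p = 0.000841). Without the parental library of experiment 3 the difference was called in 13 long-repeat targets below and 1 above, in 14 and 3 short-repeat targets and in 5 and 6 with promoter sites. Without the clone control 18 long-repeat targets were called below, 20 and 4 short-repeat targets were called below and above, and 8 and 8 with promoter sites. Leaving out STAG2 KO 5 of experiment 2 gave 49 and 6, 125 and 23, and 54 and 31, in the same order. Long-repeat targets called above numbered 1 without STAG1 KO 5 and 2 without STAG1 KO 7. Without STAG1 KO 1, KO 5 or KO 7 the short-repeat targets called above numbered 7, 7 and 9, and promoter-site targets 13, 13 and 10 above and 14, 13 and 15 below.

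Targets of the other classes had called genes too. GPR174, a receptor with a short repeat, was at 17.01, 36.6 and 82.1 CPM in controls and at 3, 1, 1, 3 and 2 counts in the STAG2 knockouts, and at 34.8, 131 and 100.3 against 122 and 156 in experiment 3. STAG2 knockouts were at the floor, and of the STAG1 knockouts KO 1 and KO 7 were below their controls, KO 1 the furthest. FBN1, the microfibril protein fibrillin 1, fell with STAG2 loss (-2.16) and had a STAG1 effect of 0.71 that was not called (difference -2.87, adjusted p = 0.000199). With promoter sites, EFNA5, the guidance ligand ephrin-A5, was at 1.76, 2.91 and 4.005 CPM in controls and 22.1, 19.0, 17.4, 24.6 and 15.8 in STAG2 knockouts, and at 4.42 and 1.76 against 1.45, 0.866 and 1.56. It was high in every STAG2 knockout and low in every STAG1 knockout (difference 4.07, adjusted p = 0.00045; STAG1 effect -1.26, adjusted p = 0.199). FLRT2, an adhesion and guidance receptor that shares exon positions with FLRT2-AS1 on the other strand, had the same signs (difference 1.94, adjusted p = 0.000134). Of 19 activated targets known from other work, 2 had a called difference above and 1 below (15.8%): BCL11B and STEAP2 (0.86, adjusted p = 0.0142) against PRKCB, protein kinase C beta (-0.98, adjusted p = 0.0424). With no file term the STEAP2 difference was -0.01, and without the parental library of experiment 3 PRKCB had an adjusted p of 0.294. The PRKCB difference was called in 3 of the 16 fits without 1 library, and the STEAP2 difference was not called without the clone control (0.113).

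Genes at CTCF/cohesin loops were picked by the study from genes it had called STAG2-dependent, so their STAG2 counts, and those of the difference, follow in part from that choice and are not independent here. Of 792 at loops common to both states, the difference was called below in 89 and above in 62 (19.1%, against 6.11% of all genes), with 283 lower and 227 higher for STAG2 loss (64.4%, against 17.1%) and 5 lower and 4 higher for STAG1 loss (against 0.49% and 0.551% of all genes). Of 129 at lost loops the difference was below in 16 and above in 12 (21.7%), and of 69 at gained loops below in 4 and above in 3 (10.1%). NES, the intermediate filament nestin at a lost loop, was at 98.8, 129 and 226 CPM in controls and 4.24, 15.1, 7.25, 10.0 and 9.47 in STAG2 knockouts, and at 62.9 and 65.0 against 244, 190.2 and 165 in STAG1 knockouts. It was low in all STAG2 knockouts and high in all STAG1 knockouts (difference -5.68, adjusted p = 8.21e-05), with a STAG1 effect of 1.64 short of the threshold (adjusted p = 0.0981, but 0.0165 without STAG2 KO 24 and 0.0456 without STAG2 KO 5 of experiment 2). SH3PXD2A, a podosome scaffold at a common loop, had a STAG2 effect of -1.05 and a STAG1 effect of 0.38 (difference -1.43, adjusted p = 8.75e-05), WDFY2, an endosomal protein on chromosome 13, -1.29 and 0.44, and DTNBP1, the dysbindin gene on chromosome 6, 1.17 and -0.32. At gained loops, the GTPase gene RAB29 rose with STAG2 loss (difference 1.18, adjusted p = 0.00335), as did ANKRD33B (2.28, adjusted p = 0.0116). NFATC2, a transcription factor, had a called difference (-3.61, adjusted p = 0.0131) with neither effect called; STAG1 knockouts held 11.8, 22.9 and 13.1 CPM against 1.98 and 3.58, all above both controls. Without STAG2 KO 5 of experiment 2 both NFATC2 effects were called (adjusted p = 0.0121 for STAG2 and 0.0191 for STAG1). Without the parental library of experiment 3 the adjusted p was 0.143 for NFATC2 and 0.079 for ANKRD33B, and without the clone control 0.0586 and 0.0582. At common loops the difference was called below in 21 and above in 14 without the parental library, in 32 and 22 without the clone control, in 188 and 95 without STAG2 KO 5 of experiment 2, in 73 and 34 without STAG1 KO 1, in 72 and 32 without STAG1 KO 5 and in 78 and 39 without STAG1 KO 7. At lost loops it was called in 2 and 4 without the parental library, 6 and 5 without the clone control, 32 and 13 without STAG2 KO 5 of experiment 2 and, above, in 8, 6 and 8 without STAG1 KO 1, KO 5 and KO 7. At gained loops 11 and 6 were called without STAG2 KO 5 of experiment 2, 2 below without STAG1 KO 1, and 0 below and 1 above without either control of experiment 3. The STAG1 effect was called in 14 lower and 19 higher at common loops without STAG2 KO 5 of experiment 2, in 8 and 8 without STAG2 KO 24, in 1 and 1 without STAG1 KO 5 in 3 lower without STAG1 KO 1, in 0 without the parental library of experiment 3, and in 1 lower and 0 higher without its clone control.

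Clustered protocadherins, cell-surface proteins of neurons chosen promoter by promoter, had 4 of 42 (9.52%, against 6.11% of all genes) called for the difference, all below (0 above by edgeR, 1 at an unadjusted p under 0.05, 0 by DESeq2). Transcripts within the alpha cluster, and within the gamma cluster, share their last exons, so the split of reads between members is uncertain. The gamma members PCDHGA11, PCDHGC3 and PCDHGB5 share exon positions on the same strand, so their calls may not be separate. PCDHGA11 (-1.31, adjusted p = 0.00125), PCDHGC3 (-1.41, adjusted p = 0.00351) and PCDHGB5 (-1.24, adjusted p = 0.0271) had STAG2 effects of -1.01, -1.39 and -0.70. Of 26 HOX cluster genes tested 1 was called (3.85%, below the share over all genes), HOXC12, at 15.3, 12.1, 8.44, 9.27 and 11.6 CPM in STAG2 knockouts against 2.85, 6.22 and 11.6, and 4.16, 2.81 and 4.89 in STAG1 knockouts against 8.42 and 6.89. It was above its controls in each STAG2 knockout and below them in each STAG1 knockout (difference 1.89, adjusted p = 0.0172). HOXD13 rose with STAG2 loss (1.01, adjusted p = 0.000356), with a difference that was not called (0.84, adjusted p = 0.0756; 0.0339 without STAG2 KO 5 of experiment 2 and 0.00711 without STAG1 KO 7). Without the parental library of experiment 3 the adjusted p of the difference was 0.0529 for PCDHGC3, 0.21 for PCDHGB5 and 0.131 for HOXC12, and without the clone control 0.0862 for PCDHGB5 and 0.056 for HOXC12. The protocadherins called numbered 1 without the parental library, and 2 without the clone control, STAG1 KO 1, KO 5 or KO 7. PCDHGB5 was called in 10 and HOXC12 in 13 of the 16 fits without 1 library. The HOX list's median difference was 0.18 and -0.21 with no file term.

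The study's STAG2 signature was chosen in part on these STAG2 libraries, so its STAG2 direction, and that of the difference, is not independent here. Of 170 tested genes on its lower side, 120 were called lower for STAG2 loss (70.6%, against 8.91% of all genes lower). The difference was below in 51 (30%, against 3.75% of all genes below) and above in 0 (0 at an unadjusted p under 0.05 and 0 by DESeq2). By edgeR the STAG1 effect was called higher in 3 (against 0.551% of all genes, 20 at an unadjusted p under 0.05, 9 by DESeq2). It was called lower in 0 (8 at an unadjusted p under 0.05, 1 by DESeq2). Of 57 on its higher side, 37 were called higher for STAG2 loss (64.9%, against 8.22%), 18 differences were above (31.6%, against 2.36%) and 0 below (0 at an unadjusted p under 0.05 and 0 by DESeq2), and STAG1 loss was called higher in 1 and lower in 2 (against 0.551% and 0.49% of all genes). HTR1F, a serotonin receptor, was at 13.2, 22.2 and 43.9 CPM in controls and 0.287, 0.167, 0.207, 0.208 and 0.381 in STAG2 knockouts, and at 42.9 and 45.3 against 40.3, 81.0 and 58.2 in experiment 3. All 5 STAG2 knockouts were far below their controls, and of the STAG1 knockouts KO 1 was below and the other two above (difference -6.96, adjusted p = 9.66e-06). ATP8B1, a phospholipid flippase, had a difference of -4.59 (adjusted p = 6.86e-05) and shares exon positions with ATP8B1-AS1 on the other strand, and SV2C, a synaptic vesicle protein, was at 0 or 1 count in each STAG2 knockout and 3.68, 7.53 and 12.2 CPM in their controls, and at 3.09, 5.36 and 5.399 CPM against 10.8 and 11.3 with STAG1 lost. DNAJC6, the clathrin uncoating factor auxilin, rose with STAG2 loss (4.44, adjusted p = 0.000319; difference 6.40, adjusted p = 0.00628), and without the parental library of experiment 3 its difference was not called (adjusted p = 0.332). On the lower side the difference was then called in 17 genes, in 27 without the clone control and in 100 without STAG2 KO 5 of experiment 2. The STAG1 effect was called higher in 7 and lower in 2 of the lower side in the last of these fits and higher in 1 without STAG1 KO 1 or KO 7, and its 3 calls were lost without either control of experiment 3. On the higher side it was called lower in 1 and higher in 0 without any single STAG1 knockout or either control of experiment 3, and in 3 and 2 without STAG2 KO 5 of experiment 2. Differences called on the higher side numbered 2, 6 and 27, and without STAG1 KO 1, KO 5 and KO 7 they were 10, 11 and 12.

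Other genes the study names were not all apart between the paralogs. ADRA1D, an alpha-1 adrenergic receptor, was at 119, 134 and 162 CPM in controls and 13.9, 50.9, 22.1, 6.36 and 30.8 in STAG2 knockouts, and at 172 and 178 against 197, 219 and 209 with STAG1 lost. STAG2 knockouts were low and STAG1 knockouts slightly above their controls (difference -2.70, adjusted p = 0.0214; 0.159 without the parental library of experiment 3 and 0.119 without its clone control). NR2F1, an orphan nuclear receptor, rose with STAG2 loss (3.43, adjusted p = 0.000495), and RNF141, a RING finger protein, fell (-0.84, adjusted p = 0.0191). Their differences did not pass the test (2.98, adjusted p = 0.0832, and -1.16, adjusted p = 0.111). Without STAG2 KO 5 of experiment 2 the NR2F1 difference had an adjusted p of 0.045, and without STAG2 KO 24 the RNF141 STAG2 effect had 0.0613. Exons of NR2F1-AS1 overlap NR2F1 on the other strand.

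Markers of other cells moved in places. KRT8, a keratin of simple epithelia, was at 9.001, 14.2, 8.86, 10.3 and 9.19 CPM in STAG2 knockouts against 21.99, 25.7 and 38.1 in controls, and at 32.5, 26.8 and 164 in STAG1 knockouts against 15.5 and 16.6. Every STAG2 knockout was below and every STAG1 knockout above its controls, KO 7 the most (difference -3.62, adjusted p = 0.0105; STAG1 effect 2.22, adjusted p = 0.116), and KRT18 shares exon positions with it on the other strand. It was the 1 of 4 tested epithelial markers with a called difference, beside 6.11% of all genes. Of 3 tested immune and endothelial markers the 1 called was KDR, the VEGF receptor, at 0.115, 0.222, 0, 0.0521 and 0 CPM against 0.257, 0.445 and 0.986 and 4.09, 0.974 and 2.57 against 0.706 and 0.534. Its STAG1 knockouts were all above their controls at low levels (difference -4.77, adjusted p = 0.028). With the parental library of experiment 3 left out the adjusted p was 0.107 for KRT8 and 0.166 for KDR, without the clone control 0.0761 and 0.166, and without STAG1 KO 1 or KO 7 0.0687 and 0.0556 for KDR. The STAG2 effect was called in 13 of the 16 fits without 1 library for KRT8 and in 14 for KDR. Without STAG2 KO 24 of experiment 1 the difference was called in 2 epithelial and 2 immune and endothelial markers. Of 2 tested muscle markers edgeR called 0 (0 at an unadjusted p under 0.05, 0 by DESeq2).

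Lists of RAS-ERK, replication, cholesterol and housekeeping genes are given by counts, beside the 6.11% of all genes with a called difference. Of 17 RAS-ERK feedback and response genes 1 had a called difference (5.88%), SPRED3, an inhibitor of RAS-ERK signaling, at 15.9, 32.1, 9.06, 6.88 and 8.65 CPM in STAG2 knockouts against 1.91, 2.80 and 7.71, and 3.34, 5.36 and 6.36 in STAG1 knockouts against 5.41 and 6.19. All 5 STAG2 knockouts were above their own controls, and STAG1 knockouts lay on both sides of theirs (difference 2.09, adjusted p = 0.0251; 0.106 without the parental library of experiment 3, 0.115 without its clone control, 0.0681 without STAG1 KO 1 and 0.0563 without STAG1 KO 5). Of 35 DNA replication and mitosis genes edgeR called 0 for the difference (1 at an unadjusted p under 0.05, 1 by DESeq2). Their median difference was -0.22, and 0.37 with no file term, with library medians from -0.82 in STAG2 KO 5 of experiment 2 to 0.52 in STAG1 KO 1. Of 19 cholesterol synthesis genes edgeR called 0 for the difference and for either effect (0 at an unadjusted p under 0.05 and 0 by DESeq2), with a median difference of 0.13. Of 10 housekeeping genes 0 had a called difference by edgeR (0 at an unadjusted p under 0.05, 0 by DESeq2), and SDHA, a subunit of succinate dehydrogenase, fell with STAG2 loss (-0.33, adjusted p = 0.00818).

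**Figure D5:**
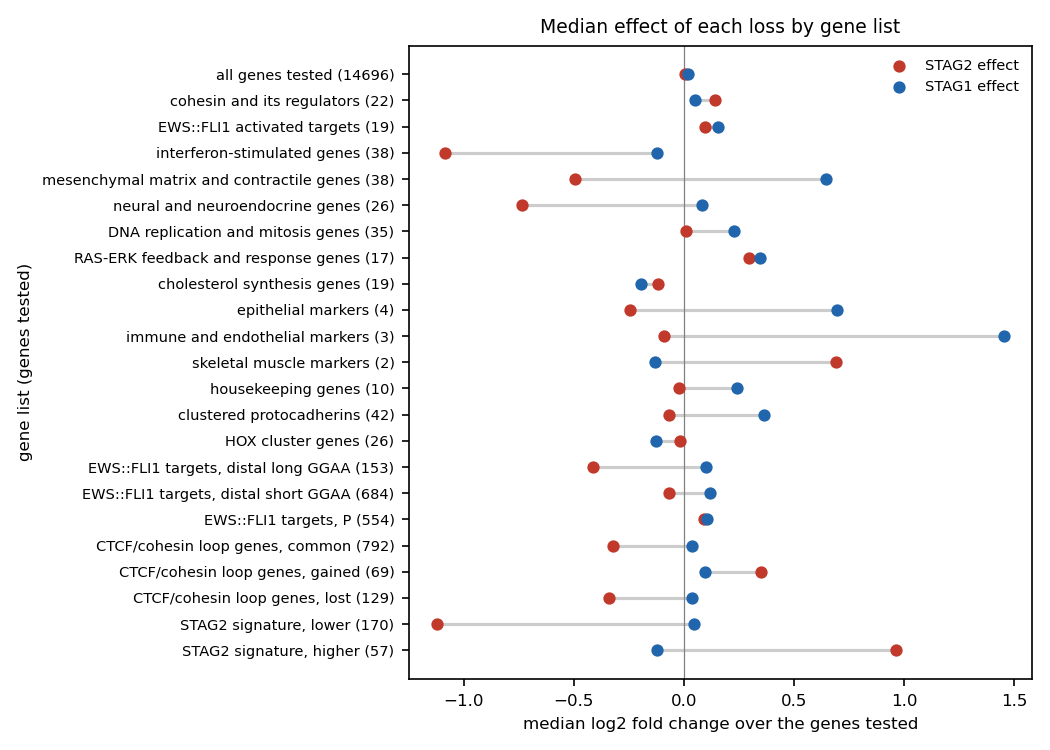
Median log2 fold change of the STAG2 effect (red) and the STAG1 effect (blue) over the genes tested of each list, with the number tested in parentheses. Mesenchymal matrix and contractile genes stand at -0.49 and 0.65, and interferon-stimulated genes at -1.09 and -0.12.

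Whole chromosomes also differed between libraries. Of the genes tested, 14006 were placed on a chromosome by GENCODE. On chromosome 6 the median difference was -0.24 and the difference was called in 10.8% of genes, with a median STAG1 effect of 0.19. On chromosome 13 the median log2 difference from controls was -0.47 and -0.61 in STAG2 KO 5 and KO 24 of experiment 1 and between -0.03 and 0.10 in the STAG2 knockouts of experiment 2. STAG2 KO 5 of experiment 2 stood at -0.29 on chromosome 11, KO 3 at -0.26 on chromosome 15, and KO 2 at 0.25 on chromosome 4 and 0.27 on chromosome 18. PDS5B, SERTM1, WDFY2 and CPB2-AS1 lie on chromosome 13 and PKIB and DTNBP1 on chromosome 6. B4GALNT4, MMP3 and RNF141 lie on chromosome 11, ABHD17C and FBN1 on chromosome 15. FAM241A, USP46 and KDR lie on chromosome 4, and NETO1, NEDD4L and ATP8B1 on chromosome 18. The part of these shifts in the values of these genes was not tested.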

How the data were processed

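RNA from A673 cultures was sequenced from oligo-dT, non-directional libraries. The authors deposited counts per gene symbol, made by aligning reads with TopHat2 2.0.0 and Bowtie 0.12.7 to hg38; the counting program is not given. Counts of 16 libraries from 3 experiments were joined by symbol (28278), and 6 columns of other knockouts were left out. In R 4.3.3 with edgeR 4.0.16, genes passing filterByExpr (14696) were scaled by TMM and fitted with experiment, STAG2 knockout and STAG1 knockout as terms. Quasi-likelihood tests gave both effects and their difference (Benjamini-Hochberg over all genes tested). Class genes were named from those averaging 5 CPM or more with the knockouts of each called effect apart from their own controls: the 4 with the largest difference per class and sign (other effect inside -1 to 1 for a single paralog) and up to 3 per direction of the shared class. With no such limits, up to 3 per list by the smallest p of the difference, STAG1, STAG2 and 4 genes of the study were added. List members without a called difference are partly given by counts alone, a choice made after seeing values. Lists covered cohesin, EWS::FLI1 targets, interferon, mesenchymal, neural, replication, RAS-ERK, cholesterol, housekeeping, protocadherin, HOX, loop, signature and other-cell marker genes. Members and lists were chosen with earlier results of these data known. Alternatives were DESeq2 1.42.0, RLE scaling, no filter, no experiment term, single experiments, single control types, summed libraries and leaving out each library.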

Additional observations from a re-analysis of the deposited data

Results flagged for a closer look

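Library values of 31 genes were examined in the STAG2 knockouts and in the controls of experiments 1 and 2, 62 groups in all. In 4 of them 1 library lay far from the others, where 1 in 20 of all 62 groups would be 3.1. All 4 were among the 31 STAG2 knockout groups, with KO 24 of experiment 1 as the distant library each time. The 3.1 counts control groups too, and each group pools 2 experiments, so no conclusion is drawn from it. It was highest for STAG2 (180.9 CPM, the nearest at 68.0), IGSF10 (3.779, nearest 1.892) and RIN3 (6.502, nearest 3.101), and lowest for SLC6A15 (26.06, nearest 35.72).

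The STAG2 effect differed between experiments 1 and 2, by a test of the difference itself, in 3 of 31 genes examined (9.68%). Apart from STAG1 and STAG2, these were class genes. Naming required STAG2 knockouts on the same side of their controls in both experiments, or a STAG2 interval inside -1 to 1. That choice favors genes with similar effects in both experiments, so no conclusion is drawn from their share beside that of all genes. Experiment 1 minus experiment 2 was 1.835 on the log2 scale for PLD5 (adjusted p = 0.0416), -1.525 for CPB2-AS1 (adjusted p = 0.0339) and 1.184 for IGSF9 (adjusted p = 0.0465). Over all 14696 genes tested, edgeR called it in 1728 (11.8%), of which 83 had both effects called and opposite in sign.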

How the results depend on the processing

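Counts below come in the order difference, STAG2 effect, STAG1 effect, opposite, STAG2 alone and STAG1 alone, which were 898, 2518, 153, 41, 645 and 69. DESeq2 gave 1546, 3273, 567, 135, 1002 and 209. With no file term they were 3840, 2738, 461, 123, 1799 and 265. With the STAG2 effect from experiment 1 they were 2188, 5590, 682, 120, 1677 and 186. With the WT clone as the only controls they were 211, 1857, 6, 2, 186 and 4, and with the parental line 15, 265, 1, 0, 13 and 1. Summing WT clones a and b of experiment 1 into 1 library, STAG1 effect, opposite and STAG1 alone were 86, 25 and 39. Alternatives chosen after seeing the data were the fit without STAG1 KO 1 and STAG2 KO 5 of experiment 2 (1859, 5127, 360, 99, 1410 and 117) and experiments 1 and 2 fitted apart from experiment 3 (STAG2 effect 1687, STAG1 effect 757). Requiring the other effect inside -1 to 1 left 240 genes for STAG2 alone. RLE scaling, no filter and experiment 2 for the STAG2 effect stayed within 1.5 times for all 6 counts. Similar counts did not mean the same genes. With experiment 2 for the STAG2 effect, 639 of the 898 differences and 1161 of the 2518 STAG2 calls were kept. So were 22 of the 41 opposite genes, 399 of the 645 for STAG2 alone and 39 of the 69 for STAG1 alone.

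Leaving out each library in turn, the difference ranged from 195 (without the parental library of experiment 3) to 1860 (without STAG2 KO 5 of experiment 2), the STAG2 effect from 1804 (without WT clone 1 of experiment 2) to 5032, the STAG1 effect from 5 to 570, opposite genes from 3 to 113, STAG2 alone from 172 to 1347 and STAG1 alone from 2 to 203. The lowest of the last 4 came without the parental library of experiment 3 and the highest, as for the STAG2 effect, without STAG2 KO 5 of experiment 2. Over named genes, 3731 of 4212 values kept direction and side of the threshold, 438 lost their call, 25 gained one and 18 turned in sign.

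The values that turned in sign were differences. With no file term the MAP7D2 difference was 2.016, the CREB5 difference 1.212, the LGR5 difference -0.9328, the USP46 difference -0.06111 and the STEAP2 difference -0.01023, and with experiment 1 for the STAG2 effect those of MAP7D2 and LGR5 were 1.012 and -0.07988. The MMP3 difference was -0.4703 with experiment 2, -0.1597 with parental controls and -0.02992 with the summed libraries. Without 1 library it was -0.09026 (WT clone b, experiment 1), -0.0861 (parental, experiment 1), -0.001719 (STAG2 KO 5, experiment 1), -0.1741 (STAG2 KO 24), -0.3065 (STAG2 KO 3), -0.1476 (WT clone, experiment 3) and -0.1668 (STAG1 KO 5), between -0.3065 and 0.2966 over all 16. The MAP7D2 difference, -0.3146 in the main fit, turned to 0.01338 without STAG2 KO 2 and kept its sign, at -0.7494, without STAG2 KO 24. The cause was not tested. No paired analysis was possible because the compared groups share fewer than 2 replicate numbers, so a replicate block was not run. Experiment 3 has 2 controls, and without 1 of them the lone control is assumed to vary like the other groups.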
